A study of Arabidopsis thaliana with 7 samples.

Results

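RCA, PSBY and LHCB4.1 are nuclear genes whose proteins work in the chloroplast, and their transcripts were measured here in RNA from Arabidopsis thaliana roots. The 3 genes were found by symbol in the annotation of the array. Each was named by 1 probe set (a group of probes that reads 1 transcript), so they are 3 of the 13350 genes that the annotation pairs with a probe set of their own, on an array of 22810 probe sets. RCA (AT2G39730) was read by 245061_at, PSBY (AT1G67740) by 245195_at and LHCB4.1 (AT5G01530) by 251082_at. They stand for green tissue in a root sample, since photosynthesis genes are expressed mostly in leaves.

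RCA encodes rubisco activase, which frees the carbon-fixing enzyme rubisco of bound inhibitors and so keeps the Calvin cycle running. PSBY encodes small subunits of photosystem II, the complex that splits water. LHCB4.1 encodes CP29, a minor antenna protein that passes light energy from the outer antenna to the photosystem II core. Nuclear genes of this kind are transcribed in green tissue in the light and kept low in most roots, although roots grown in light can form some chloroplasts.

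The study concerned the nitrate response pathway of roots and used 7 one-colour Affymetrix ATH1 arrays. Wild type roots were measured without dexamethasone (2 arrays) and with it (2 arrays). Roots of 1 transgenic line in the C24 ecotype, which expresses a fusion of the MADS-box factor ANR1 with the steroid-binding part of the rat glucocorticoid receptor under the 35S promoter, were measured without dexamethasone (2 arrays) and with it (1 array, of replicate 2). Dexamethasone, the steroid that lets such a fusion enter the nucleus, was given at 1 µM for 1 h, and the other plants spent 1 h on plates without it. All plants had been starved of nitrogen for 2 days, were transferred after 9 days and grew under continuous light on medium with 0.5% sucrose. The label of the wild type gives "Control" as its ecotype, so background and transgene cannot be told apart in a comparison of the line with the wild type. RNA of 20 plants was pooled for each array, and the labels number 2 biological replicates. Replicate 1 holds 3 arrays and replicate 2 holds 4.

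The values are linear signals scaled by the authors, with a 2% trimmed mean of 100 on each array. Of the root markers listed for the check of the tissue, 3 of 17 had a probe set of their own in the annotation. The beta-glucosidase gene BGLU23 (PYK10), a marker of roots, had signals of 2672.6 to 3148.4 over the 7 arrays. Of the markers of shoot epidermis, stomata and leaf development 4 of 18 had a probe set in the annotation. SPCH and MUTE, which act in the stomatal lineage, had signals of 0.5 to 2.0, and FAMA and YAB3 had 7.8 to 19.2. Arrays also differed in RNA quality. The ratio of the signals at the 3' and 5' ends of the actin transcript, which grows as RNA is broken, lay between 0.251 and 0.528 in replicate 1 and between 0.346 and 1.59 in replicate 2. For GAPDH the same ratio ran from 1.05 to 1.12 and from 1.18 to 1.55, and for ubiquitin from 1.25 to 1.44 and from 1.49 to 2.19, so both were higher in each replicate 2 array than in any replicate 1 array.

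All 3 photosynthesis genes gave lower signals in every replicate 2 array than in any replicate 1 array. RCA had signals of 229.9 in the untreated wild type, 234.6 in the treated wild type and 210.7 in the untreated line of replicate 1. In replicate 2 RCA had 121.1 in the untreated wild type, 103.6 in the treated wild type, 124.4 in the untreated line and 145.9 in the treated line. The replicates did not overlap, and the treated line was the highest array of replicate 2.

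PSBY had signals of 120.7 in the untreated wild type, 131.5 in the treated wild type and 105.6 in the untreated line of replicate 1. In replicate 2 it had 72.8, 59.9 and 58.2 in the same order and 59.5 in the treated line. The treated wild type and both line arrays lay close together, while the untreated wild type stood above them.

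LHCB4.1 had signals of 119.5 in the untreated wild type, 101.1 in the treated wild type and 91.0 in the untreated line of replicate 1. In replicate 2 it had 83.9, 63.9 and 58.4 in the same order and 80.8 in the treated line. The order of these 3 groups was the same in both replicates, and the gap between the lowest array of replicate 1 and the highest of replicate 2 was narrow. The plot of signals by replicate shows this gap beside the wider ones of RCA and PSBY.

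**Figure D1:**
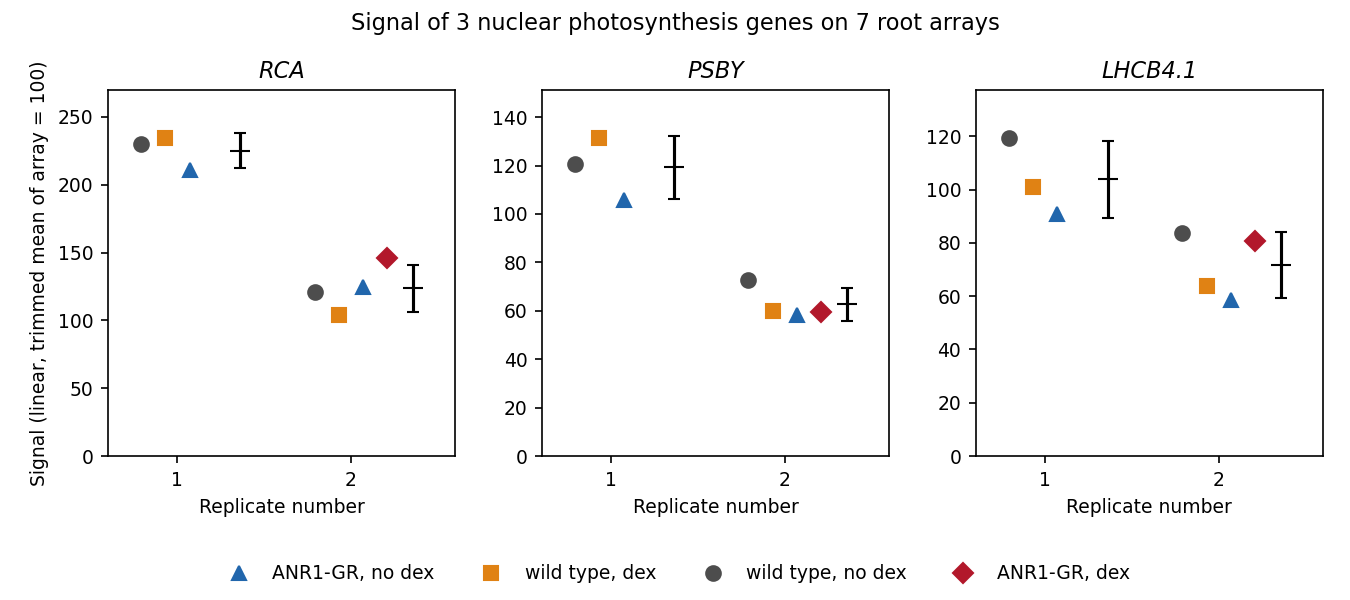
Signals of RCA, PSBY and LHCB4.1 (linear scale, vertical axis from 0) on each of the 7 arrays by replicate number, with the mean and SD of each replicate in black. The replicate 1 arrays of RCA lie between 210.7 and 234.6 and those of replicate 2 between 103.6 and 145.9, and neither PSBY nor LHCB4.1 overlaps between the replicates.

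The mean signal of RCA was 225 ± 12.7 (SD, n = 3) in replicate 1 and 124 ± 17.4 (SD, n = 4) in replicate 2. The mean of PSBY was 119 ± 13.0 and 62.6 ± 6.84, and that of LHCB4.1 was 104 ± 14.5 and 71.8 ± 12.5, with the same n. Each difference was larger than the SD within either replicate. By contrast, the 2 arrays of a group, 1 from each replicate, differed widely, as in the untreated wild type, where RCA had a mean of 175.5 ± 76.9 (SD, n = 2).

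The difference between the replicates was tested with limma over the 10182 probe sets that passed a filter on dim signals, all 3 genes included, with line and dexamethasone as terms. Differences are on the scale of log2(signal + 16), which understates the change of dim probe sets, and a probe set passed at an adjusted p under 0.05 (Benjamini-Hochberg, over all those tested). RCA fell in replicate 2 by 0.82 ± 0.13 (SE), a 1.77-fold difference with an adjusted p of 0.0111. PSBY fell by 0.75 ± 0.11 (SE), 1.68-fold, with an adjusted p of 0.00945. LHCB4.1 stood at -0.43 ± 0.15 (SE), 1.34-fold, and missed the threshold with an adjusted p of 0.0968 and a 95% interval of -0.77 to -0.084. In an exact two-sided permutation test over the arrays each gene gave p = 0.0571, the smallest value that 4 arrays against 3 allow.

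Many other probe sets also differed between the replicates. Of all tested probe sets 11.5% passed in this comparison, 5.83% as lower and 5.63% as higher in replicate 2, and 19.8% had all replicate 2 arrays below all replicate 1 arrays. Against these shares 2 of the 3 genes passed as lower and 3 of 3 did not overlap. The 3 genes were chosen with earlier results of these data known, so the shares do not test them as a set. Counted over all tested probe sets, 2.16% had a difference as low as that of RCA, 2.87% as low as that of PSBY and 10.2% as low as that of LHCB4.1. The histogram of replicate differences places the 3 genes in its left flank. The median over all tested probe sets was -0.018.

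**Figure D2:**
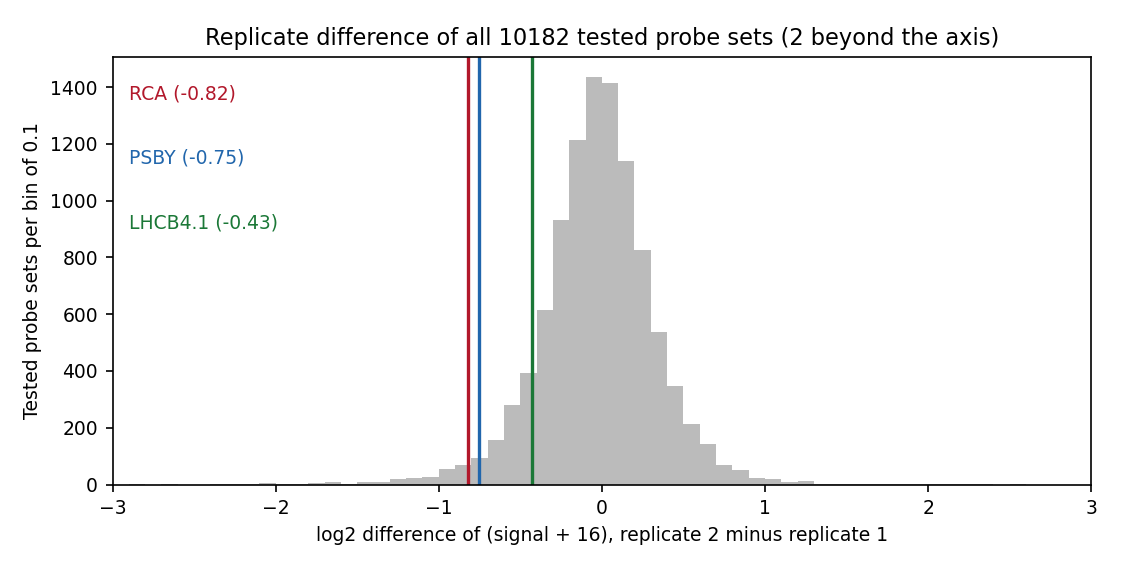
Histogram of the log2 difference between replicate 2 and replicate 1 (horizontal axis, negative where replicate 2 is lower) over 10182 tested probe sets, counted in bins of 0.1, with 2 probe sets beyond the axis. Vertical lines mark RCA at -0.82, PSBY at -0.75 and LHCB4.1 at -0.43, left of the bulk of the probe sets.

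The calls rested on few arrays. RCA missed the threshold without the line array of replicate 1 (-0.96, adjusted p 0.0673), the treated wild type of replicate 1 (-0.77, 0.151) or the wild type kept without dexamethasone in that replicate (-0.78, 0.0611). PSBY missed it without the first of these (-0.79, 0.0845) or the second (-0.67, 0.141). LHCB4.1 passed without the treated line (-0.51, 0.0248) and without the replicate 2 array of the untreated wild type (-0.54, 0.0413). The count of all probe sets called, 1167, ran from 39 without the treated wild type of replicate 1 to 2850 when the untreated wild type of replicate 2 was left out.

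Lower signals in replicate 2 were seen in each group that had both replicates. For RCA the log2 difference between replicate 2 and replicate 1 was -0.84 in the untreated wild type, -1.07 in the treated wild type and -0.69 in the untreated line. For PSBY it was -0.62, -0.96 and -0.71 in the same order, and for LHCB4.1 -0.44, -0.55 and -0.52. For each gene the treated wild type had the widest gap of the 3 groups. In the wild type arrays alone, a fit with 1 residual degree of freedom, RCA (-0.96, adjusted p 0.00482) and PSBY (-0.79, 0.0155) passed and LHCB4.1 (-0.50, 0.0745) did not.

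RNA quality moved with the replicate. The GAPDH and ubiquitin 3'/5' ratios separated the 4 arrays of replicate 2 from the 3 of replicate 1, as the signals of RCA, PSBY and LHCB4.1 did, while the actin ratio overlapped. The untreated line of replicate 2 had the highest ratios of actin (1.59), GAPDH (1.55) and ubiquitin (2.19) and the treated wild type the next (0.876, 1.33 and 1.91), and these 2 arrays had the lowest LHCB4.1 signals. With the mean log2 ratio of the 3 transcripts as a term, RCA (-0.74, adjusted p 0.0120) and PSBY (-0.68, 0.0115) passed, whereas LHCB4.1 stood at -0.22 (0.422). The replicate number, RNA quality as read by GAPDH and ubiquitin, and any condition that differed between the replicates cannot be told apart. In pooled roots, fewer cells of a type and less RNA per cell cannot be told apart either.

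**Figure D3:**
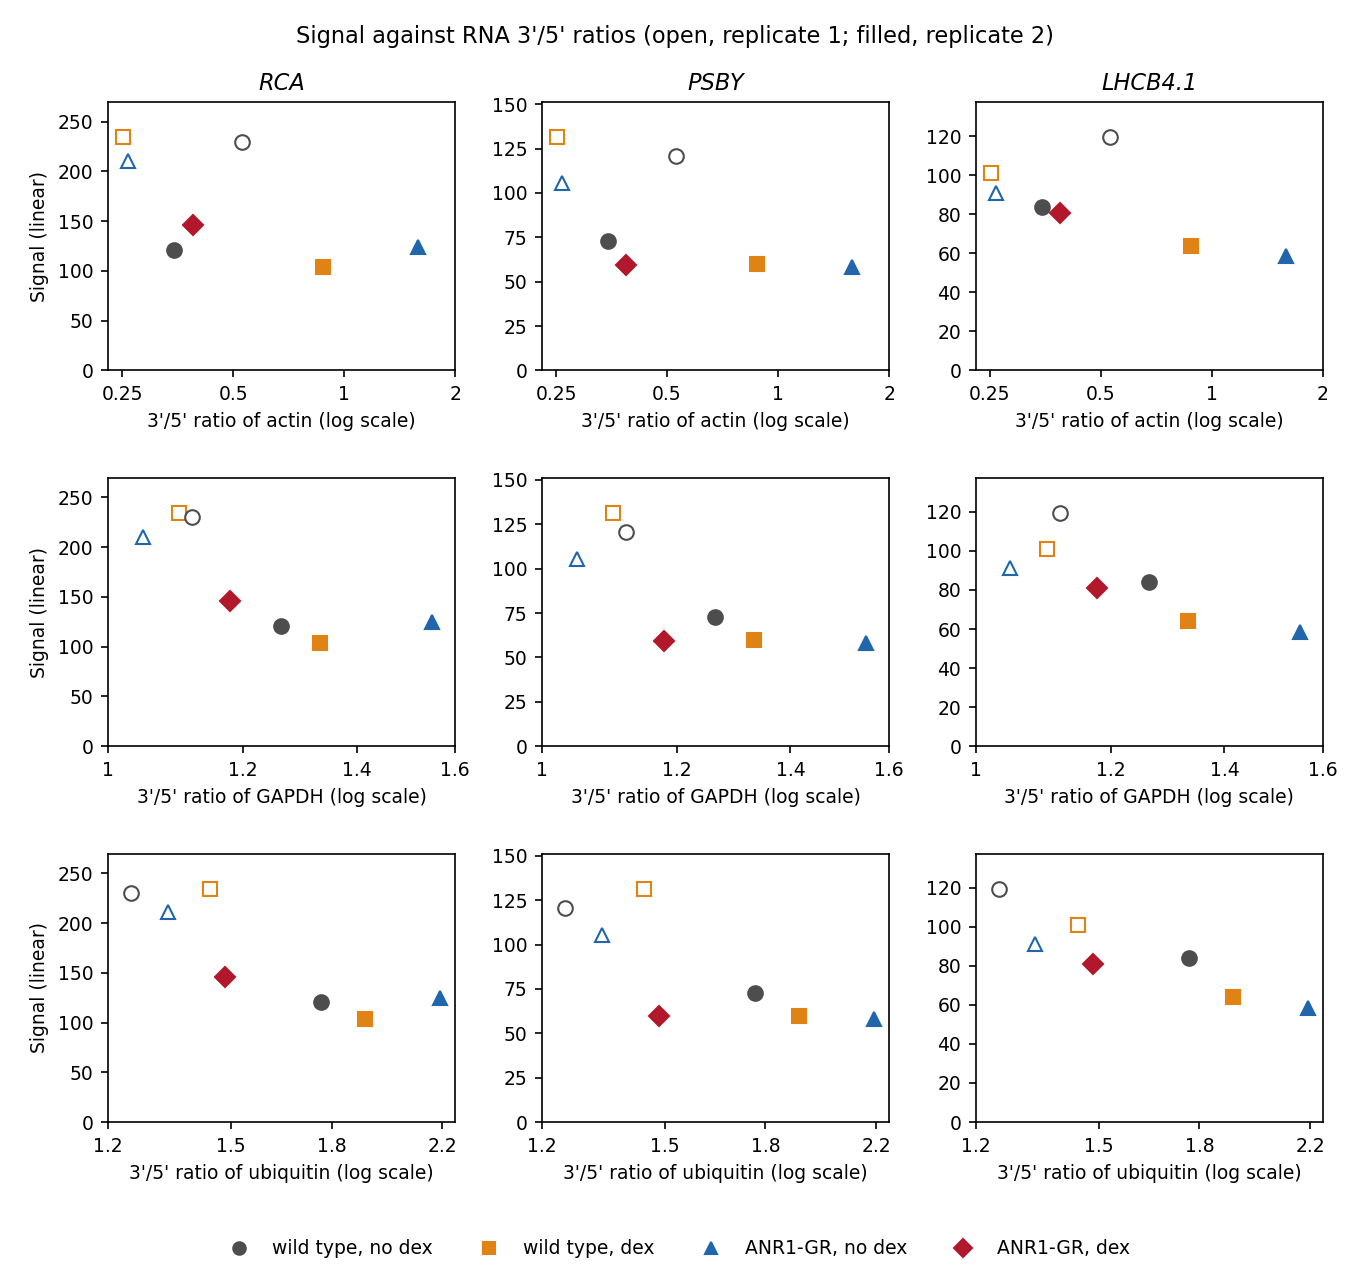
Signal of RCA, PSBY and LHCB4.1 (vertical axes from 0) against the 3'/5' signal ratios of actin, GAPDH and ubiquitin (log scales, 1 row each) on the 7 arrays, open symbols for replicate 1, filled symbols for replicate 2, and shape and colour for the group. The filled symbols lie below the open ones for each gene, and they also lie right of the open ones for GAPDH (1.18 to 1.55 against 1.05 to 1.12) and ubiquitin, while for actin the 2 replicates overlap.

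Other nuclear photosynthesis genes were taken from 7 lists of antenna proteins, photosystems I and II, electron transport and ATP synthase, the Calvin cycle, photorespiration and chlorophyll synthesis. The lists name 90 genes beside RCA, PSBY and LHCB4.1. Of these, 12 had a probe set of their own in the annotation, and 2 of the 12 passed the filter. Like the 3 genes, the lists were chosen with earlier results of these data known. In photosystem II, PSBW, a small subunit, had 136.7 ± 58.4 (SD, n = 3) in replicate 1 and 73.4 ± 13.2 (SD, n = 4) in replicate 2. The replicates did not overlap, but the untreated wild type of replicate 1, at 204.1, stood well above the other arrays of its replicate (99.7 and 106.4), and the difference of -0.63 ± 0.21 (SE) did not pass (adjusted p 0.0907). ATPC1, the gamma subunit of the chloroplast ATP synthase, had 133 ± 16.2 and 99.7 ± 10.5 and stood at -0.36 ± 0.13 (adjusted p 0.116). Neither of the 2 tested genes therefore passed in either direction.

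The other 10 genes were too dim for the test and are described by their signals. SBPASE, an enzyme that regenerates the rubisco substrate, had 33.0 to 36.3 in replicate 1 and 19.7 to 23.2 in replicate 2. HPR1, the peroxisomal hydroxypyruvate reductase of photorespiration, had 38.3 to 47.4 and 17.1 to 23.6. CHLM, a methyltransferase of chlorophyll synthesis, had 56.6 to 69.5 and 31.3 to 42.4. These 3 genes were lower in replicate 2 without overlap, as were PSAE1 of photosystem I (38.6 to 59.0 and 21.6 to 28.0) and PRK, the phosphoribulokinase of the Calvin cycle (12.2 to 18.2 and 8.3 to 10.8).

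Not every nuclear gene of photosynthesis was lower in replicate 2 without overlap. LHCB4.3, a relative of LHCB4.1 that is now often placed in a separate antenna type, had 27.7 to 30.2 in replicate 1 and 34.2 to 40.3 in replicate 2, so it was higher in replicate 2 without overlap. The closer relative LHCB4.2 was near the bottom of the scale on each array (0.9 to 1.9), and its replicates overlapped. PSAN of photosystem I, PSB27, an assembly factor of photosystem II, and PORB, which reduces protochlorophyllide in the light, also overlapped. Their mean signals in replicates 1 and 2 were 43.87 and 43.85 for PSAN, 49.7 and 36.8 for PSB27, and 15.2 and 13.9 for PORB. In all, 7 of the 12 genes were lower and 1 was higher in replicate 2 without overlap, against 14.3% and 10.4% of all 22746 probe sets other than controls. When dim probe sets were not filtered out, CHLM passed as lower (-0.66 ± 0.11 (SE), adjusted p 0.0482) and the other 11 did not, in a fit where 1.06% of 22746 probe sets passed as lower.

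**Figure D4:**
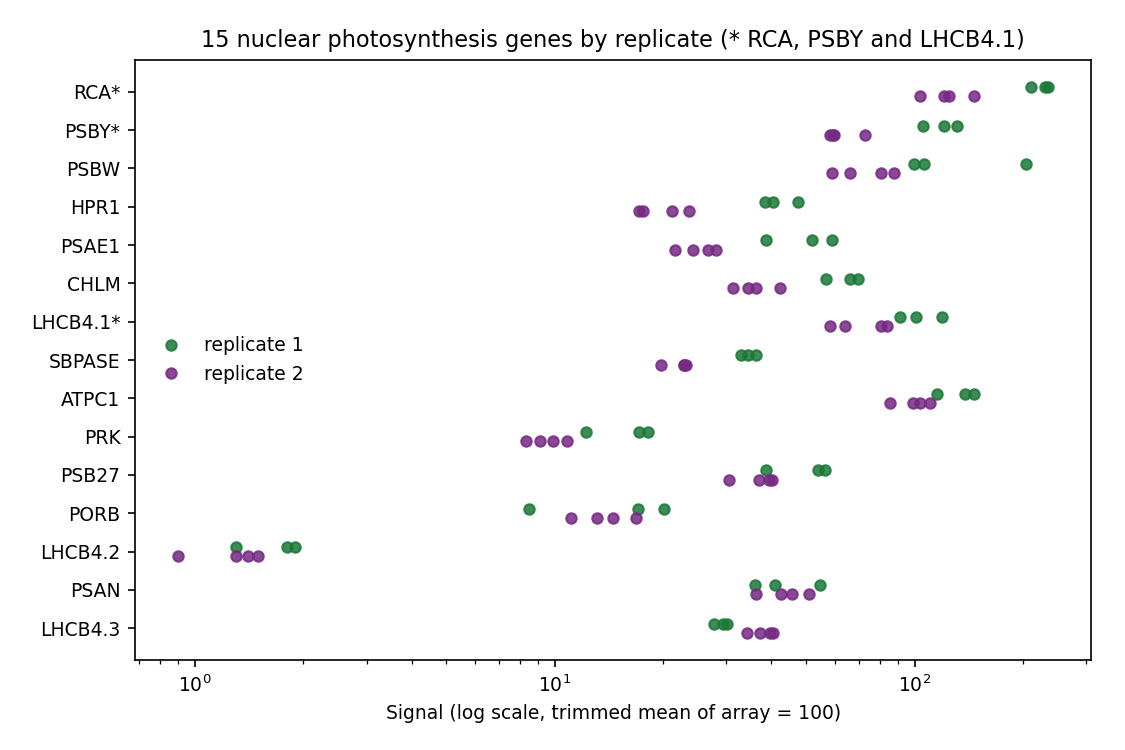
Signals (log scale) of the 15 nuclear photosynthesis genes with a probe set, 1 row per gene ordered by the replicate difference, with 3 green points for replicate 1 and 4 purple points for replicate 2. In the upper rows, from RCA to PRK, the purple points lie left of the green ones, in the last row, LHCB4.3, they lie right of them, and in the 4 rows between they overlap.

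Genes encoded in the plastid include partner subunits of the same complexes, but also genes of other functions, such as ribosomal proteins and RNA polymerase. Together they had 69 probe sets, of which 48 were below the filter, and they were not split by function here. In 61 of the 69 the mean was lower in replicate 2, and in 40 the replicates did not overlap, against 14.3% of all probe sets. Without the filter 23 of the 69 passed as lower, beside the 1.06% of all, and the median log2 difference over the 69 was -0.59. Of the 21 tested with the filter 19 passed as lower, where 5.83% of all tested probe sets did and 52.6% had a negative difference. The filter used the mean over all 7 arrays, so a dim probe set could pass it through high replicate 1 signals alone. The 19 of 21 are therefore no separate support. Markers of roots did not move one way: the root hair expansin EXPA7 fell by 1.11 ± 0.28 (SE) with an adjusted p of 0.0406, EXPA18, a second root hair expansin, stood at 0.49 ± 0.14 (0.0638) and BGLU23 at 0.18 ± 0.080 (0.166). The 3 root markers summed to between 2978 and 3103 in replicate 1 and to between 2965 and 3500 in replicate 2. Most of these sums was BGLU23, with 2672.6 to 3148.4 over the arrays, so they say little about the other root markers. The 4 shoot markers summed to 24.8 to 34.5 and 21.5 to 32.8, with SPCH and MUTE near 0. The sum over the 15 nuclear photosynthesis genes was 935 to 1192 and 634 to 705. Without RCA, PSBY and LHCB4.1 the other 12 summed to 527 to 722 and 402 to 464. The part of leaf or stem tissue in these differences was not tested.

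The comparison of the line with the wild type asked whether the transgenic roots differed irrespective of dexamethasone. All 3 genes overlapped between the line and the wild type. RCA ran from 124.4 to 210.7 in the 3 line arrays and from 103.6 to 234.6 in the 4 wild type arrays. In the limma fit with line and dexamethasone as terms the log2 difference was -0.064 ± 0.32 (SE) for RCA, -0.32 ± 0.29 for PSBY and -0.23 ± 0.21 for LHCB4.1. None passed (adjusted p 1.00 for each). Of all tested probe sets 0% passed by limma, and the unadjusted p was under 0.05 for 55 of them (162 once the replicate number was a block).

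Within a replicate the untreated line was lower than the untreated wild type for LHCB4.1 in both replicates, by a log2 difference of -0.34 and -0.43, and for PSBY by -0.17 and -0.26. RCA differed by -0.12 in replicate 1 and 0.034 in replicate 2. With dexamethasone, replicate 2 gave 0.44 for RCA, -0.0076 for PSBY and 0.28 for LHCB4.1. The replicate numbers paired the arrays, so the fit was repeated with the replicate number as a block. It gave 0.10 ± 0.13 (SE) for RCA, whose direction turned, -0.17 ± 0.11 for PSBY and -0.14 ± 0.15 for LHCB4.1. The 95% intervals narrowed to -0.20 to 0.40 for RCA, -0.43 to 0.086 for PSBY and -0.49 to 0.20 for LHCB4.1. With the block 1 probe set of all those tested passed (0.00982%), none of the 3 genes.

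The wild type with and without dexamethasone shows what the steroid does in the absence of the fusion. RCA was 229.9 without and 234.6 with it in replicate 1 and 121.1 and 103.6 in replicate 2. The log2 differences were 0.027 and -0.20 for RCA, 0.11 and -0.23 for PSBY, and -0.21 and -0.32 for LHCB4.1, so only LHCB4.1 was lower with dexamethasone in both pairs of arrays. The limma values were -0.085 ± 0.46 (SE) for RCA, -0.058 ± 0.41 for PSBY and -0.27 ± 0.29 for LHCB4.1. None passed (adjusted p 1.00), in a comparison with 0% of probe sets called and 19 below 0.05 before adjustment (115 when blocked). The intervals narrowed with the block to -0.44 to 0.27 for RCA, -0.41 to 0.29 for PSBY and -0.58 to 0.051 for LHCB4.1.

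Dexamethasone in the line, the test of induced ANR1, rests on a single treated array in replicate 2. Beside the untreated line of the same replicate, the treated line had signals of 145.9 against 124.4 for RCA, 59.5 against 58.2 for PSBY and 80.8 against 58.4 for LHCB4.1. These are log2 differences of 0.21, 0.025 and 0.38. Without the block the fit sets this array against line arrays of both replicates and gave -0.14 ± 0.56 (SE), -0.33 ± 0.50 and 0.12 ± 0.35. With it the values were 0.29 ± 0.20, 0.051 ± 0.19 and 0.37 ± 0.18, so the block turned the direction for RCA and PSBY. None passed (adjusted p 1.00 without and 0.821, 0.975 and 0.807 with the block), 0% of all probe sets were called in either fit, and 54 had an unadjusted p under 0.05 without and 603 with it. The 2 line arrays of replicate 2 also had the highest and the lowest GAPDH and ubiquitin 3'/5' ratios of that replicate, at 1.55 and 2.19 untreated and 1.18 and 1.49 treated. With the mean log2 ratio as a term and no block LHCB4.1 stood at -0.050, and the part of the ratio within the replicate was not tested.

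To separate induction from the steroid, the dexamethasone response of the wild type was subtracted from that of the line. LHCB4.1 was lower with dexamethasone in both wild type pairs and higher in the line pair, and the difference of the responses within replicate 2 was 0.70. By limma it was 0.38 ± 0.46 (SE) without and 0.64 ± 0.22 with the block, with a 95% interval of 0.12 to 1.16, and it did not pass over all probe sets (adjusted p 1.00 and 0.688). RCA stood at -0.055 ± 0.73 without and 0.38 ± 0.25 with the block, and PSBY at -0.27 ± 0.65 and 0.11 ± 0.24, neither of them past the threshold. In this comparison 0% of probe sets were called with or without the block, and 76 had an unadjusted p under 0.05 without and 720 with it. The value of LHCB4.1 without the block was 0.16 when the fit held the mean 3'/5' ratio and ran from 0.11 to 0.66 when 1 array was left out. The plot of fitted differences shows how much narrower the intervals became with the block.

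**Figure D5:**
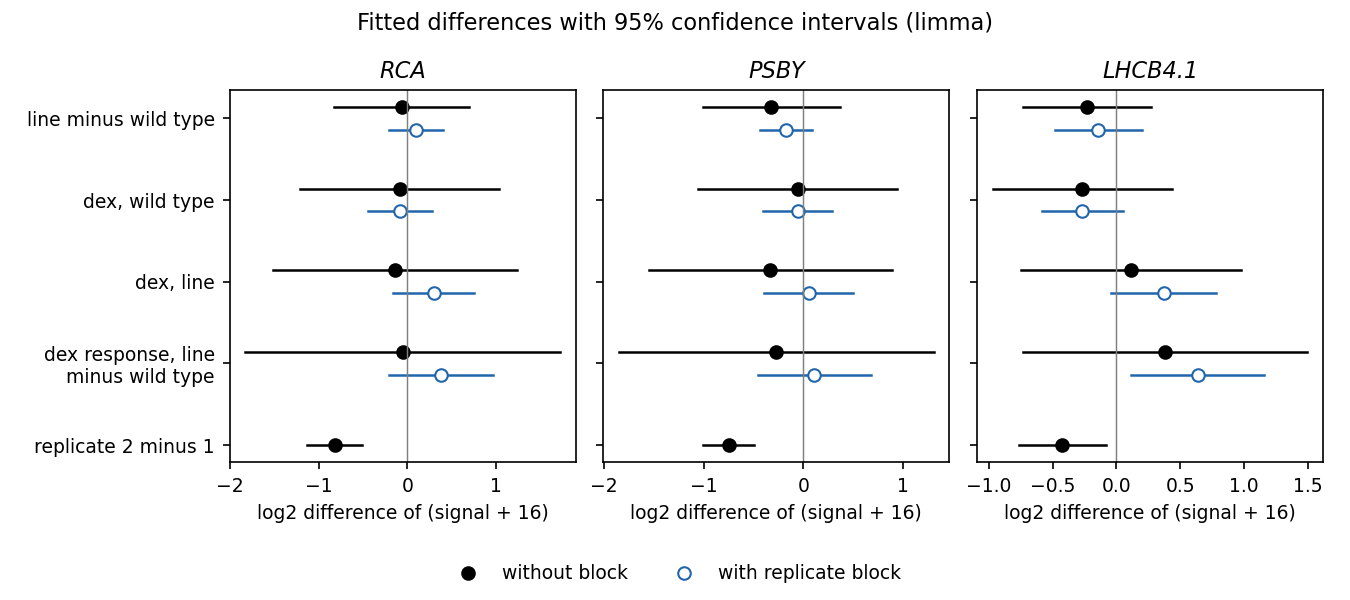
Fitted log2 differences of RCA, PSBY and LHCB4.1 (points) with 95% confidence intervals (lines) in 5 comparisons, without (black) and with (blue, open) the replicate number as a block. Intervals for line and dexamethasone cross 0 except for LHCB4.1 in the difference of responses with the block (0.12 to 1.16), while the 3 intervals for the replicate lie below 0.

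Likeness between genes was measured as the root mean square difference between profiles of log2(signal + 16), each centred on its own mean over the 7 arrays, among 5287 other tested probe sets that are paired with 1 gene. RCA was closest to AT5G05670 (0.073), SCPL34 (AT5G23210), a serine carboxypeptidase-like gene (0.077), and AT4G16155 (0.092). PSBY was closest to AT3G22550 (0.074), AT1G05700 (0.085) and AT1G06380 (0.090). LHCB4.1 was closest to AT4G23460 (0.060), AT5G60980 (0.062) and AT3G58610 (0.062). For each of these 9 genes the replicate 2 signals lay below those of replicate 1, as in SCPL34 with 232.9 to 255.9 and 108.6 to 149.6. The 9 genes were picked by likeness over these same 7 arrays, so the shared direction follows from the choice. RCA and PSBY stood 0.15 apart, which placed PSBY at rank 36 from RCA and RCA at rank 35 from PSBY. LHCB4.1 stood 0.22 from RCA (rank 245) and 0.21 from PSBY (rank 177). Counted from LHCB4.1, RCA took rank 1065 and PSBY rank 865. Each rank is the place the gene would take among the 5287 others. Of the other nuclear photosynthesis genes in the lists only 2, PSBW and ATPC1, passed the filter and could be compared. Neither was among the 9 closest genes, and with so few compared no conclusion is drawn from this.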

How the data were processed

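RNA of pooled roots was measured on 7 arrays, and group and replicate number came from each sample's label. The authors deposited 1 linear intensity per probe set and array. Equal 2% trimmed means (100 on each array) show that the authors scaled them, and how the probes were summarised is not given in the sources used here. Without the 64 controls, 10182 probe sets had a mean signal of at least 0.5 times the trimmed mean. These were tested on log2(signal + 16) with limma 3.58.1 in R 4.3.3 (lmFit, eBayes with trend). The fits were also run on simulated data with independent noise on each array. That run cannot check the fits without the block, since its arrays shared no noise within a replicate.

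Gene names came from the platform annotation, matched to RefSeq (TAIR10.1) by gene ID, and 503 probe sets with several genes were not named. The annotation paired 13513 of the 22810 probe sets with 1 gene. A listed gene that was not found is therefore not shown to be missing from the array. RCA, PSBY, LHCB4.1 and the lists were chosen with earlier results of these data known. Named genes were these 3, the 3 closest profiles to each and up to 8 members of each list.

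The replicate numbers of the labels paired the arrays. Differences between replicates correlated across probe sets at r = 0.472 to 0.826 between the 3 groups that have both, and genes are not independent replicates. The spread of the lone treated line array was taken from the other groups. P-values measure the spread between these arrays, whose number limits the precision. Alternatives were the replicate as a block, scaling, the number added before the log, filters, no trend, the 3'/5' ratio as a term, other terms or arrays, and leaving out each array.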

Additional observations from a re-analysis of the deposited data

Results flagged for a closer look

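PSBY in the untreated wild type of replicate 2, at 72.8, stood apart from the other 3 replicate 2 arrays, which had 58.2 to 59.9. The gap to the nearest of them was 0.884 of the range of the 4 arrays. Chance flags about 1 in 20 such sets when the arrays are repeats, whereas these 4 came from different groups. For each of the 3 genes the rule was also applied to the wild type arrays and to the arrays without dexamethasone.

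The dexamethasone response of LHCB4.1 had opposite directions in the wild type, where both pairs of arrays were lower with the steroid, and in the line, where the only pair was higher. Within replicate 2 the responses differed by 0.702 on the log2 scale. The limma test of the difference did not pass with or without the replicate block (adjusted p 0.688 and 1.00). The untreated line array of this pair had the highest 3'/5' ratios of the 7 arrays (actin 1.59, GAPDH 1.55, ubiquitin 2.19), and its treated partner had 0.388, 1.18 and 1.49. With the ratio as a term and no block the response of the line was -0.050 and the difference of the responses 0.16. The part of RNA quality in this pair was not tested separately.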

How the results depend on the processing

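RCA, PSBY and LHCB4.1 were lower in replicate 2 under each alternative run. Leaving out 1 array gave -0.96 to -0.72 for RCA, -0.84 to -0.67 for PSBY and -0.54 to -0.33 for LHCB4.1, and 39 to 2850 calls in all. LHCB4.1 passed with replicate as the only term (-0.45, 2457 calls) and with the 4 groups as terms (-0.51). The fit with 4 groups gives the lone treated line array its own term. Its estimate is therefore that of the fit without this array, not a separate result. Without the filter 468 probe sets passed. The causes were not tested.

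With the replicate block the log2 value of RCA turned to 0.10 for the line, 0.29 for dexamethasone in the line and 0.38 for the difference of responses, and that of PSBY to 0.051 and 0.11 in the last 2. The block changed no other call than 1 probe set for the line, which also passed with median centring, with 1 added before the log, with a mean signal of at least 100, with a term for the 3'/5' ratio and without the untreated line of replicate 2 (1 each, the same probe set). That ratio also turned RCA for the line (0.017), PSBY for dexamethasone in the wild type (0.020) and LHCB4.1 for dexamethasone in the line (-0.050).

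Leaving out 1 array, the line comparison had 0 to 1 calls and RCA ran from -0.28 to 0.14, PSBY from -0.53 to -0.15 and LHCB4.1 from -0.38 to -0.060. For dexamethasone in the wild type RCA ran from -0.62 to 0.45, PSBY from -0.54 to 0.42 and LHCB4.1 from -0.54 to 0.0093. For dexamethasone in the line they ran from -0.49 to 0.21, -0.69 to 0.025 and -0.14 to 0.38. For the difference of responses RCA ran from -0.59 to 0.48, PSBY from -0.75 to 0.21 and LHCB4.1 from 0.11 to 0.66 (0.16 when the fit held the 3'/5' ratio). None of the 3 genes passed in these 4 comparisons under any alternative. PSBY and LHCB4.1 are not tested at a mean signal of at least 100. Leaving out the only treated line array ends the last 2 comparisons, and for dexamethasone in the wild type that fit was not run either.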
